A study of Homo sapiens with 6 samples.

Results

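Histone acetyltransferases and BET bromodomain readers were examined in the mRNA of Meg-01 cells, a human megakaryoblastic cell line, after treatment with the short chain fatty acid propionate (C3). The 9 genes are EP300, CREBBP, KAT2A, KAT2B, KAT5, KAT6A, KAT7, BRD2 and BRD3. They were chosen by symbol, as 9 of the 58735 genes in the deposited count table, and all 9 passed the filter on low counts. Earlier results of these data were known when they were chosen. The groups were Meg-01 cells without treatment (3 libraries) and Meg-01 cells given 500 µM sodium propionate for 48 h (3 libraries). Both groups come from the same line, so they share its leukaemic background, and the study names the libraries as technical replicates. The p-values therefore measure the spread between these libraries, which may leave out differences between cultures.

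Acetyltransferases transfer an acetyl group from acetyl-CoA to lysine residues of histone tails, a mark of open and transcribed chromatin. They fall into families: p300 and CBP, the GCN5/PCAF enzymes, and the MYST enzymes. Most work inside large complexes whose scaffold and reader subunits choose the target. Bromodomains bind acetylated lysine, and the BET proteins carry a pair of them and recruit the transcription elongation machinery. Short chain fatty acids bear on both steps, as they can inhibit histone deacetylases, and propionyl-CoA made from C3 can be used by p300 and CBP to propionylate histones. The comparison asks whether the RNA of the enzymes and readers themselves differed after C3 treatment.

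Library totals lay between 16159449 and 22821722 counts. Of the 15078 genes tested, 761 were higher and 222 lower DEGs by the gates of the study, below 0.01 for the adjusted p-value and above 1.3 for the fold change in either direction. With single libraries left out, 516 to 766 were higher and 129 to 340 lower. With libraries scaled by size alone 100 were lower. The label of the line was checked on 10 megakaryoblast markers. ITGA2B, GATA1, TAL1 and FLI1 had mean normalised counts of 12902, 1818, 5197 and 4751 in control cells, whereas PF4 was at 0 in every library. Markers of other cell types were low in their summed level, with 26.96 to 45.5 CPM (counts scaled to library size) for 6 fibroblast genes, mostly from LUM, and 28.4 to 38.5 CPM for 5 monocyte genes, mostly from LYZ. LUM and LYZ were both lower after C3 treatment, and COL1A1 was higher, with a mean of 16.9 normalised counts after C3 treatment against 4.52 in control cells. Of the megakaryoblast markers, GP1BA and NFE2 were lower and ITGB3 was higher at an adjusted p-value below 0.05, and the summed level was 1609 to 1677 CPM in control and 1485 to 1615 CPM in C3 libraries. The part of these markers in the results was not tested. The lymphocyte markers summed to 4.84 to 6.66 CPM and the epithelial markers to 8.79 to 11.6 CPM, mostly from EPCAM (a mean of 190 normalised counts in control cells), with COL1A2, CD3D, MS4A1, CD14, FCN1, CD163, KRT5, KRT14 and KRT19 at or near 0.

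The 9 genes differed little between the groups, with fold changes from 0.81 for KAT5 to 1.10 for BRD2. None was a DEG by both gates in edgeR's quasi-likelihood test, against 6.52% of all tested genes (5.05% higher and 1.47% lower), and none was one in DESeq2 or limma-voom. At an adjusted p-value below 0.05 without a fold gate, KAT7, KAT5 and KAT2A were lower and no member was higher. Over all tested genes this gate was passed by 8.77% in the lower and 11.0% in the higher direction, 19.8% in all. At an unadjusted p-value below 0.05, 3 members were lower and 1, BRD2, was higher, against 15.3% of all tested genes in the lower direction, 16.8% in the higher and 32.1% in either. The median log2 fold change of the 9 genes was -0.10, against 0.0021 over all tested genes. In bulk RNA, fewer cells of a type and less RNA per cell cannot be told apart.

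**Figure D1:**
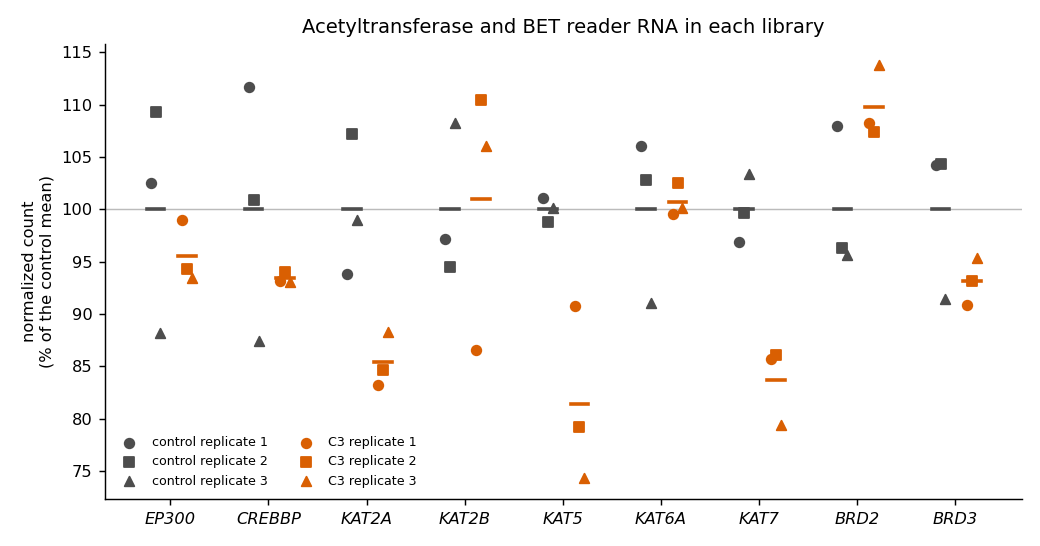
Normalised counts of each gene in each library, as percent of that gene's control mean (points; shapes give the replicate number, lines the group means). All 3 C3 libraries lie below all 3 control libraries for KAT2A, KAT5 and KAT7, and the groups overlap for the other 6 genes.

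The sequence before the transcription start is shown for KAT2A, KAT5 and KAT7, because these 3 members of separate complexes were the ones that were lower. Each line gives the 250 bases upstream of the RefSeq start on GRCh38.p14, 5′ to 3′ on the strand of the gene, with the letters CCGGAAGT, the core bound by ETS factors, in capitals. The windows are chr17:42121368-42121617 (reverse strand, KAT2A), chr11:65712002-65712251 (forward strand, KAT5) and chr17:49788431-49788680 (forward strand, KAT7). The RefSeq start can differ from the gene start in the annotation given below, so the KAT5 window lies inside the annotated gene and the KAT7 window runs past its annotated start.
KAT2A: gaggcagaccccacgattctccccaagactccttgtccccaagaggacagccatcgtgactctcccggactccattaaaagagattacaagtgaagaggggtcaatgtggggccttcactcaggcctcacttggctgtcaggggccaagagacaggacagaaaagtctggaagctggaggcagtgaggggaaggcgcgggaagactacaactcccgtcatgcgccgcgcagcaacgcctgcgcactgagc
KAT5: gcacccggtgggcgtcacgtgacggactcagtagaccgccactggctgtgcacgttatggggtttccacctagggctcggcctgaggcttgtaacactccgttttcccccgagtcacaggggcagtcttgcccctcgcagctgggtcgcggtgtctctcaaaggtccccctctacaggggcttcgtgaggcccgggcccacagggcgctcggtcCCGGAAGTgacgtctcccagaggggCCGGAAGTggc
KAT7: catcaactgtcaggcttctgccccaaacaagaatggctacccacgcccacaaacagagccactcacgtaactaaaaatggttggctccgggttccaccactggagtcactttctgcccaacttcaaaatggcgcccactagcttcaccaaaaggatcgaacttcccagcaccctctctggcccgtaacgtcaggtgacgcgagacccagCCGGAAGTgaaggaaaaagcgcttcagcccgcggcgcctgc
The search covered both strands, and the letters were chosen after the sequences had been seen. KAT5 holds 2 copies, which begin 36 and 11 bases before the start, and KAT7 holds 1, which begins 41 bases before it. KAT2A has none in this window. Of the 35116 RefSeq promoter windows of this length, 3.42% hold CCGGAAGT. Windows were given for 8 of the 9 genes, 12 windows in all, and those of EP300, CREBBP, KAT2B, BRD2 and BRD3 hold no copy. The GC content of the windows was 58.8% for KAT2A, 66.4% for KAT5 and 56.4% for KAT7. That of the others was 47.6% to 86.8%, and the median over all windows was 58.0%. GC boxes (GGGCGG, either strand) were absent from the windows of KAT2A, KAT5, KAT7 and EP300 and from one BRD2 window, whereas BRD3 holds 6 and KAT2B 3 of them, and 42.6% of all windows hold at least one. The CCAAT letters, on either strand, were in none of the 12 windows, against 32.0% of all windows. The CRE core TGACG, searched on both strands, occurred 3 times in KAT5, 2 times in KAT7 1 time in KAT2A and 2 times in one of the CREBBP windows, and 21.2% of all windows hold it. These matches describe the sequence and are not measured binding sites.

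EP300 and CREBBP encode the paired coactivators p300 and CBP, which acetylate histone H3 at enhancers and promoters and carry a bromodomain of their own. EP300 (ENSG00000100393) lies on chromosome 22 of GRCh38 from 41092592 to 41180077 on the forward strand, and CREBBP (ENSG00000005339) on chromosome 16 from 3725054 to 3880713 on the reverse strand. EP300 had normalised counts of 1812, 1932 and 1558 in the control libraries and of 1749, 1667 and 1652 in the C3 libraries. CREBBP had 2478, 2240 and 1939 in the control libraries and 2067, 2087 and 2066 in the C3 libraries. For both genes the control libraries were spread widely, with replicate 3 lowest, and the C3 libraries fell inside their range. The log2 fold change of EP300 was -0.067 (its standard error, SE, 0.071; edgeR adjusted p = 0.56) and its 95% interval allows a fold change of 0.86 to 1.06. That of CREBBP was -0.10 (SE 0.072; edgeR adjusted p = 0.37), with an interval of 0.84 to 1.03. An exact two-sided permutation test, which cannot go below 0.1 with 3 libraries against 3, gave 0.6 for EP300 and 0.4 for CREBBP. The log2 count ratio of EP300 to CREBBP within libraries averaged -0.33 ± 0.12 for control and -0.30 ± 0.048 for C3 (SD over 3 libraries). The difference of 0.031 was smaller than the spread between control libraries (exact two-sided permutation p = 0.9, also after adjustment over the 3 ratios examined).

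KAT2A (GCN5) and KAT2B (PCAF) are alternative catalytic subunits of the SAGA and ATAC coactivator complexes and acetylate histone H3. KAT2A (ENSG00000108773) lies on chromosome 17 from 42113111 to 42121367 on the reverse strand. KAT2B (ENSG00000114166) lies on chromosome 3 from 20040446 to 20154404 on the forward strand. The normalised counts of KAT2A were 731, 836 and 771 in the control libraries and 649, 659 and 688 in the C3 libraries. Every C3 library was below every control library, as in 16.9% of all tested genes. The groups were apart in either direction for 34.4% of genes and for 3 of the 9 members. The mean fell from 779 ± 52.9 to 665 ± 20.2 (SD over 3 libraries each), which is on the log2 scale -0.23 (SE 0.075; edgeR adjusted p = 0.0323). This is a fold change of 0.86, with a 95% interval of 0.77 to 0.95, which does not reach the fold gate of the study. The exact two-sided permutation p-value was 0.1, the smallest the design allows. The call at an adjusted p-value below 0.05 held without control replicate 1 and was lost without each of the others, where the log2 fold change was -0.25 to -0.17 and the adjusted p-value from edgeR's test 0.050 to 0.22. It was also lost in DESeq2 (adjusted p = 0.057), without a count filter (adjusted p = 0.071) and with libraries scaled by size alone (adjusted p = 0.19). KAT2B had 318, 310 and 355 normalised counts in the control libraries and 283, 362 and 347 in the C3 libraries. The groups overlapped, with C3 replicate 1 lowest and C3 replicate 2 highest of all 6 libraries. Its log2 fold change was 0.023 (SE 0.10; edgeR adjusted p = 0.91; exact two-sided permutation p = 0.9), and the interval allows a fold change of 0.88 to 1.18. The log2 ratio of KAT2A to KAT2B averaged 1.25 ± 0.16 for control and 1.01 ± 0.17 for C3 (SD over 3 libraries). The groups overlapped and the difference was -0.24, or -0.32 to -0.14 when single libraries were left out. The exact two-sided permutation p was 0.2 (0.3 after adjustment), in a design where no difference can go below 0.1.

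KAT5 (TIP60), KAT6A (MOZ) and KAT7 (HBO1) are MYST acetyltransferases. TIP60 acetylates histones H4 and H2A in a large chromatin remodelling complex and takes part in DNA repair. MOZ is needed by haematopoietic stem cells, and HBO1 acetylates histones H3 and H4 and is linked to DNA replication origins. KAT5 (ENSG00000172977) lies on chromosome 11 from 65711996 to 65719604 (forward strand), KAT6A (ENSG00000083168) on chromosome 8 from 41929479 to 42051994 (reverse strand) and KAT7 (ENSG00000136504) on chromosome 17 from 49788624 to 49835026 (forward strand).

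KAT7 had the smallest p-value of the 9 genes. Its normalised counts were 1496, 1539 and 1596 in the control libraries and 1323, 1328 and 1225 in the C3 libraries. All C3 libraries were below all control libraries. The mean fell from 1544 ± 50.5 to 1292 ± 58.1 (SD over 3 libraries each), and the log2 fold change came to -0.26 (SE 0.065; edgeR adjusted p = 0.00575). The fold change of 0.84 (95% interval 0.76 to 0.92) passed the p-value gate of the study and missed its fold gate. By p-value KAT7 ranked 1302 among the 15078 tested genes. Without C3 replicate 3, which has the lowest count, the log2 fold change was -0.22 and the adjusted p-value 0.0706 from the same test. The p-value gate of the study was also missed without C3 replicate 2 or any control library (adjusted p = 0.011 to 0.032 from edgeR's test). It was missed as well with libraries scaled by size alone (adjusted p = 0.048 from edgeR's test).

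KAT5 had 371, 363 and 368 normalised counts in the control libraries and 333, 291 and 273 in the C3 libraries. The control libraries were nearly alike and all C3 libraries lay below them, with the C3 libraries spread further apart. The mean fell from 367 ± 4.33 to 299 ± 31.1 (SD over 3 libraries each). The log2 fold change of -0.30 (SE 0.097; edgeR adjusted p = 0.0277) was the largest of the 9 genes in size, a fold change of 0.81 with a 95% interval of 0.71 to 0.93. This call was lost in DESeq2 (adjusted p = 0.067), with libraries scaled by size alone (adjusted p = 0.10) and without each library other than C3 replicate 1, with log2 fold changes of -0.31 to -0.23 and adjusted p-values of 0.056 to 0.20 from edgeR's test. Without C3 replicate 1 KAT5 passed both gates (log2 fold change -0.38, adjusted p = 0.00536 from edgeR's test). The exons of KAT5 share 38.6% of their bases with RNASEH2C on the other strand, a gene with a mean of 3288 counts. How strand was set in the counting is not given in the sources used here. Reads of the 2 genes may therefore not have been told apart. KAT6A had 2126, 2060 and 1824 normalised counts in the control libraries and 1995, 2054 and 2006 in the C3 libraries. The C3 libraries lay inside the range of the control libraries. Its log2 fold change was 0.0095 (SE 0.066; edgeR adjusted p = 0.94; exact two-sided permutation p = 1), with a 95% interval of 0.92 to 1.11 for the fold change.

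**Figure D2:**
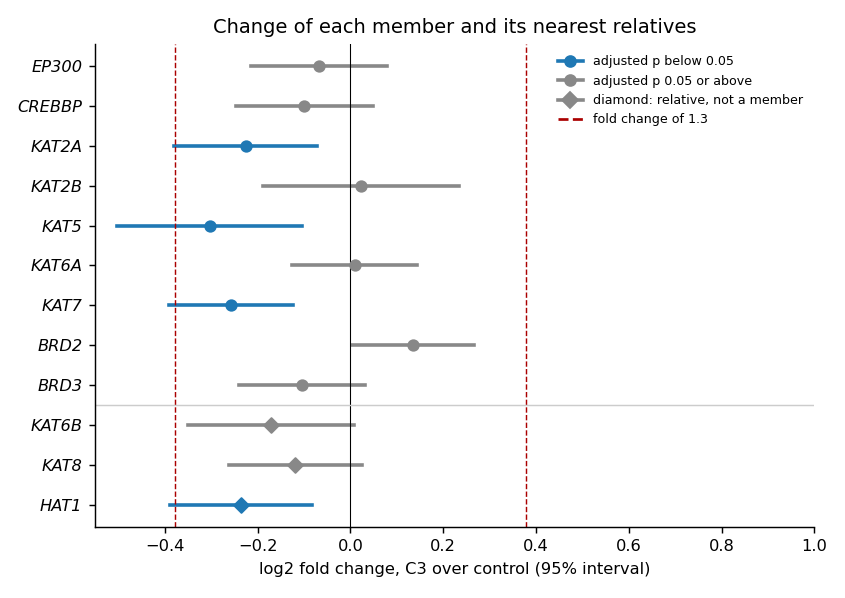
Log2 fold change of the 9 members (circles) and of KAT6B, KAT8 and HAT1 (diamonds), with 95% intervals from edgeR's fit; dashed lines mark a fold change of 1.3. KAT2A, KAT5, KAT7 and HAT1 have intervals below 0 and adjusted p-values below 0.05, and no estimate lies beyond the dashed lines.

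BRD2 and BRD3 are BET readers. BRD2 binds acetylated histone H4 on active genes, and BRD3 is known to bind acetylated GATA1, a transcription factor of the erythroid and megakaryocytic lineages. BRD2 (ENSG00000204256) lies on chromosome 6 from 32968594 to 32981505 on the forward strand, and BRD3 (ENSG00000169925) on chromosome 9 from 134030305 to 134068535 on the reverse strand. BRD2 had normalised counts of 4451, 3970 and 3944 in the control libraries and of 4462, 4425 and 4692 in the C3 libraries. Control replicate 1 reached the level of the C3 libraries, and the other control libraries lay below them. The log2 fold change was 0.13 (SE 0.064). In edgeR its p was 0.045 before and 0.15 after adjustment, the exact permutation test gave 0.2 two-sided, and the 95% interval was 1.00 to 1.20 for the fold change. Without control replicate 1 BRD2 was higher (log2 fold change 0.21, adjusted p = 0.047 from edgeR's test), as it was with libraries scaled by size alone (0.21, adjusted p = 0.024), a scaling that moved the median of all genes to 0.076. BRD2 was also higher at an adjusted p-value below 0.05 with a correction for GC content (0.15). It did not pass with that correction and a replicate block together (0.15). BRD3 had 1856, 1857 and 1627 normalised counts in the control libraries and 1617, 1658 and 1698 in the C3 libraries. Control replicate 3 lay among the C3 libraries. The log2 fold change of BRD3 was -0.10 (SE 0.066; edgeR adjusted p = 0.30; exact two-sided permutation p = 0.3), with an interval of 0.85 to 1.02. The exons of BRD3 share 18.6% of their bases with BRD3OS on the other strand, a gene with a mean of 525 counts. As for KAT5, reads of BRD3 and BRD3OS may not have been told apart, which also bears on ratios with BRD3.

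The BET readers were also set against each other within libraries. The log2 ratio of BRD2 to BRD3 was 1.26, 1.10 and 1.28 in the control libraries and 1.46, 1.42 and 1.47 in the C3 libraries. The lowest C3 library thus exceeded the highest control library. The means were 1.21 ± 0.10 and 1.45 ± 0.028 (SD, n = 3), a difference of 0.24. The exact two-sided permutation p-value was 0.1, the smallest possible, and 0.3 after adjustment over the 3 ratios, so the difference did not pass a threshold of 0.05, which this design cannot reach. When single libraries were left out, the difference stayed between 0.18 and 0.27. BRDT, the testis BET reader, was at 0 in every library.

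**Figure D3:**
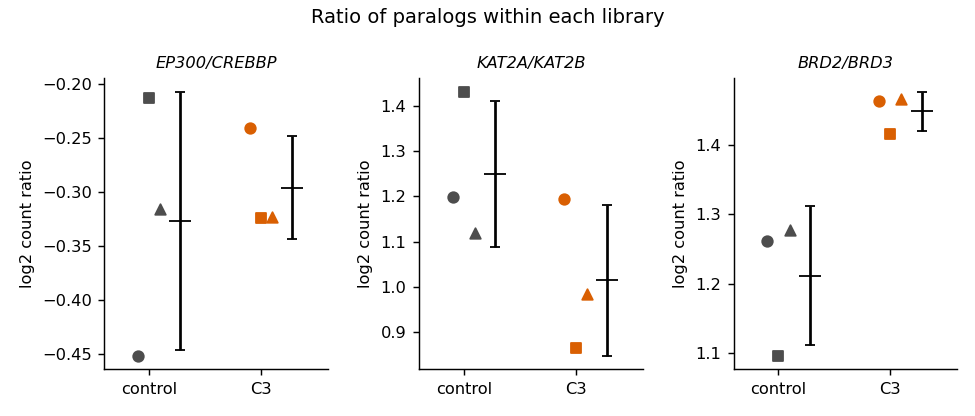
Log2 ratio of the raw counts of 2 paralogs in each library (points; shapes give the replicate number), with group mean and SD (bars, n = 3). The C3 points lie above every control point for BRD2/BRD3, by 0.24 on average, and the groups overlap for EP300/CREBBP and KAT2A/KAT2B.

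Levels were compared between genes per length, as CPM per kilobase of merged exons. BRD2 was the highest member with 24.6 ± 1.71 in control cells and 27.0 ± 0.86 after C3 treatment, and BRD3 followed with 13.9 ± 1.03 and 12.9 ± 0.31 (SD, n = 3). Next came KAT2A with 11.1 ± 0.75 and 9.47 ± 0.29, EP300 with 8.12 ± 0.88 and 7.76 ± 0.24, and CREBBP with 7.70 ± 0.94 and 7.19 ± 0.042. EP300 and CREBBP did not differ beyond their spread in control cells. KAT5 (5.29 ± 0.062 in control cells), KAT7 (5.0 ± 0.16) and KAT6A (4.46 ± 0.35) were close to each other, and KAT2B was lowest with 3.38 ± 0.25 in control cells and 3.41 ± 0.43 after C3 treatment. The length decides part of this order. With the canonical transcript in place of all merged exons, KAT6A, whose merged exons span 24143 bases against 9153, moved in control cells from rank 8 to rank 4 of the 9 genes, and EP300 moved from rank 4 to rank 6. In control cells BRD2, BRD3 and KAT2A kept ranks 1 to 3 and KAT2B rank 9 under both lengths, whereas after C3 treatment KAT6A (11.8) lay above KAT2A (11.5) with the canonical transcript.

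**Figure D4:**
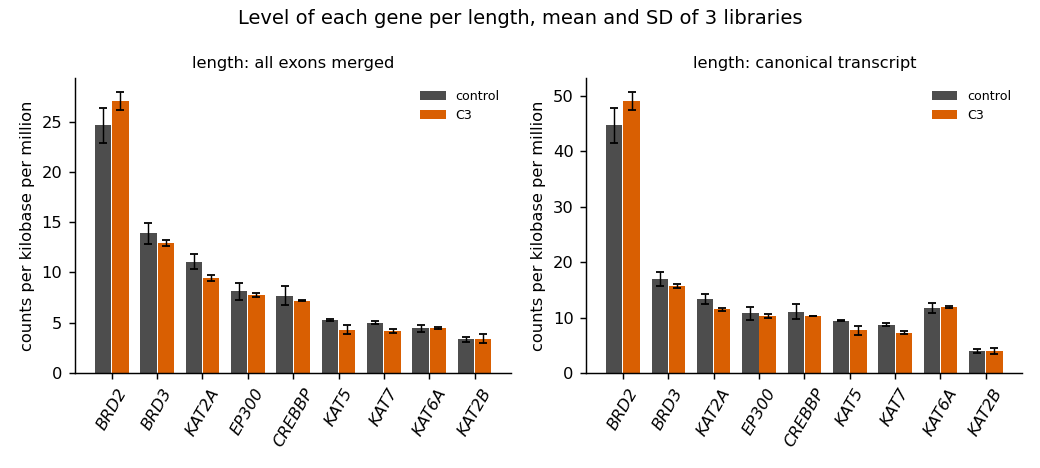
Level of the 9 members as CPM per kilobase (bars, mean of 3 libraries; error bars, SD), with all exons merged (left) or the canonical transcript (right) as the length. The BET readers stand highest and KAT2B lowest under both lengths, and KAT6A changes its place.

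The libraries of a group did not vary alike for all members. Within groups, the coefficient of variation was 8.10% for EP300 and 8.91% for CREBBP. Genes of similar abundance (the nearest 250 on either side by mean count) had medians of 5.23% and 5.16%. For KAT7 it was 3.84% against a median of 5.38%, and for KAT2B (249 to 443 counts per library) 10.3% against 8.21%. In 6 of the 9 members (66.7%) the control libraries had the larger SD, against 47.4% of all tested genes. Control replicate 3 was the lowest control library for EP300, CREBBP, KAT6A, BRD2 and BRD3, thus in 55.6% of the members and in 37.3% of all tested genes. The genes most like KAT7 over the 6 libraries, by Pearson's correlation of log2 normalised counts among 11850 genes with a mean of at least 50, were MUL1, PABPC1 and UNG (r = 0.997, 0.997 and 0.996). Those most like BRD2 were FOXO1, IMPACT and USP42 (r = 0.988, 0.984 and 0.984). These correlations mix the treatment with the spread between libraries and are given as a description.

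The partner subunits of the enzymes were described in the same fit. Their lists were also chosen with earlier results of these data known, so the counts below are a description and were not tested as sets. At an adjusted p-value below 0.05, which 8.77% of all tested genes passed in the lower direction, 10 of 26 tested SAGA and ATAC subunits were lower and 0 higher. This list leaves out YEATS2, an ATAC subunit counted below with the YEATS and double PHD readers. YEATS2 was higher by the same gate (log2 fold change 0.29), so the 0 holds for the 26 listed subunits only. Of these 26, 13 were lower and 0 higher at an unadjusted p-value below 0.05 in edgeR's test, against 15.3% and 16.8% of all tested genes. The median of the list was -0.15 on the log2 scale, and 4 of the 26 values were positive. TAF9, a core subunit shared with the general factor TFIID, fell from 1279 ± 96.2 to 888 ± 57 normalised counts (SD, n = 3; log2 fold change -0.53, adjusted p = 9.7e-06 from edgeR's test). SGF29, the subunit that reads methylated histone H3, had a log2 fold change of -0.42 (adjusted p = 0.00024). These were the 2 subunits past both gates, which 1.47% of all tested genes passed in the lower direction. SGF29 missed the fold gate with libraries scaled by size alone (-0.34). With single libraries left out, 2 to 5 subunits passed both gates, with 5 without C3 replicate 1. The other 8 of the 10 lower subunits were USP22, the deubiquitinase of SAGA (-0.35), ZZZ3 (-0.34), SF3B5 (-0.32), TAF6L (-0.31), SUPT7L (-0.30), SF3B3 (-0.28), POLE4 (-0.40) and POLE3 (-0.18). SF3B3 and SF3B5 are also splicing factors, and POLE3 and POLE4 also belong to DNA polymerase epsilon. The scaffold TRRAP (-0.11), TADA3 (-0.065) and TADA2B (-0.13) had adjusted p-values from 0.32 to 0.53 in edgeR's test. The number of lower SAGA and ATAC subunits was 6 to 11 over all alternatives, with the fewest when libraries were scaled by size alone.

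At an adjusted p-value below 0.05 in edgeR's test, which 8.77% of all tested genes passed as lower and 11.0% as higher, 4 of 9 subunits that work with KAT6A and KAT7 were lower and 0 higher. All 9 had negative values, with a median of -0.21 (6 lower and 0 higher at an unadjusted p-value below 0.05, against 15.3% and 16.8% of all tested genes). None passed both gates, also in DESeq2 and limma-voom. The 4 were JADE2 (-0.33) and BRPF3 (-0.31), scaffolds that direct HBO1 to histone H4 or H3, the reader ING5 (-0.23) and MEAF6 (-0.23), which is also a subunit of the TIP60 complex. Of 14 listed TIP60 complex subunits, 5 were lower and 0 higher by the same gate, with a median of -0.037. At an unadjusted p-value below 0.05 in edgeR's test the counts were also 5 and 0. This list leaves out the subunits BRD8 (-0.16), YEATS4 (-0.081) and TRRAP (-0.11), which are counted in other lists. Their adjusted p-values in edgeR's test were 0.078, 0.58 and 0.32, and BRD8 was lower at an unadjusted p of 0.018. EPC1, the enhancer of polycomb scaffold that holds the catalytic module, fell from 472 to 328 normalised counts on average. Its log2 fold change was -0.52 (adjusted p = 0.00024 from edgeR's test), past both gates, which 1.47% of all tested genes passed as lower. The others of the 5 were VPS72 (-0.37), the EPC1 paralog EPC2 (-0.30), ING3 (-0.29) and MEAF6. The ATPase subunits RUVBL1 (0.041), RUVBL2 (-0.018) and EP400 (0.14) had adjusted p-values from 0.19 to 0.90 in edgeR's test. Over the alternatives, the numbers of lower subunits were 2 to 4 for the first list and 2 to 5 for the second.

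Other acetyltransferases and readers gave both directions. For the lists that follow, the shares of all tested genes were 5.05% higher and 1.47% lower by both gates, 11.0% and 8.77% at an adjusted p-value below 0.05, and 16.8% and 15.3% at an unadjusted one. Of 13 further acetyltransferases, ESCO1, which acetylates cohesin rather than histones, was higher by both gates (log2 fold change 0.48, adjusted p = 0.00039 from edgeR's test). HAT1, which acetylates newly made histone H4, was lower at an adjusted p-value of 0.026 (-0.24), as was NAA60 (-0.21). The HAT1 call was lost without each library other than C3 replicate 2 (-0.25 to -0.16, adjusted p-values 0.065 to 0.087 from edgeR's test) and with libraries scaled by size alone (adjusted p = 0.19). At an unadjusted p-value below 0.05, 1 of the 13 was higher and 5 were lower. KAT6B (-0.17, adjusted p = 0.17) and KAT8 (-0.12, adjusted p = 0.25) had negative values that did not pass edgeR's test. Of 32 tested bromodomain readers outside the 9 members, KMT2A (0.39) and CECR2 (0.71) were higher by both gates and BPTF (0.27) was higher at an adjusted p-value below 0.05, so that 3 of 32 were higher by a gate that 11.0% of all tested genes passed. At an unadjusted p-value below 0.05, 11 were higher and 6 lower, against 16.8% and 15.3% of all tested genes. BRPF3, named above, was the lower one. CECR2 missed the p-value gate in DESeq2, in limma-voom and without control replicate 1, control replicate 2 or C3 replicate 1 (log2 fold change 0.55 to 0.77, adjusted p-values 0.017 to 0.052 from edgeR's test). KMT2A missed the fold gate without control replicate 3, C3 replicate 2 or C3 replicate 3 (0.32 to 0.37). Of KMT2A's exon bases, 18.3% overlap a gene on the same strand. Among 8 readers with a YEATS or double PHD domain, which can bind longer acyl marks than acetyl, DPF1 (0.91), DPF3 (0.88) and YEATS2 (0.29) were higher and DPF2 (-0.24) was lower at an adjusted p-value below 0.05 in edgeR's test. Unadjusted, 4 of the 8 were higher and 1 lower at a p-value below 0.05. DPF1 passed both gates, from 116 to 218 normalised counts on average. DPF3 has few counts, with means of 26.4 normalised counts in control and 48.4 in C3 libraries. Its fold change had a wide 95% interval of 1.29 to 2.62. MLLT1 (0.17, adjusted p = 0.052) and MLLT3 (0.10, adjusted p = 0.33) did not pass.

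Of 15 tested p300/CBP partners, MAML2, a Notch coactivator, was higher by both gates (log2 fold change 1.35, from 11.9 to 30.2 normalised counts) and CRTC1, a CREB coactivator, was lower by both (-0.51, from 957 to 672), where 5.05% of all tested genes were higher and 1.47% lower. MAML1 (-0.18) was lower at an adjusted p-value of 0.049 in edgeR's test. MAML2 has few counts and missed the p-value gate in DESeq2, in limma-voom and without each library other than C3 replicate 2 (log2 fold change 1.20 to 1.49, adjusted p-values 0.014 to 0.058 from edgeR's test). Unadjusted, 1 of the 15 was higher and 4 were lower at a p-value below 0.05. CITED2 (-0.027, adjusted p = 0.82) and CREB1 (-0.15, adjusted p = 0.24) did not pass. Of 17 elongation factors linked to BET proteins, ELL2 (0.40) was higher and MEPCE (-0.48) lower by both gates, and JMJD6 (0.20) was higher and MED12 (-0.21) lower at an adjusted p-value below 0.05. These 2 higher and 2 lower of 17 compare with 11.0% and 8.77% of all tested genes, and the unadjusted counts were 3 and 2. ELL2 missed the p-value gate in DESeq2 and without control replicate 1, control replicate 3, C3 replicate 2 or C3 replicate 3 (0.32 to 0.42, adjusted p-values 0.011 to 0.043 from edgeR's test). For MEPCE, 61.3% of the exon bases overlap a gene on the same strand, which leaves its reads uncertain. CDK9 (0.15, adjusted p = 0.13) and HEXIM1 (0.099, adjusted p = 0.38), the kinase and the inhibitor of the elongation factor P-TEFb, did not pass edgeR's test. Of 9 genes of acyl-CoA supply, DLAT of the pyruvate dehydrogenase complex (-0.19) was lower at an adjusted p-value of 0.028, and none passed both gates in edgeR's test, DESeq2 or limma-voom. At an unadjusted p-value below 0.05, 0 of the 9 were higher and 3 lower, against 16.8% and 15.3% of all tested genes. ACLY, which makes acetyl-CoA from citrate, had a log2 fold change of -0.036 (adjusted p = 0.75), and ACSS2, which makes it from acetate, -0.20 (adjusted p = 0.10 from edgeR's test).

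**Figure D5:**
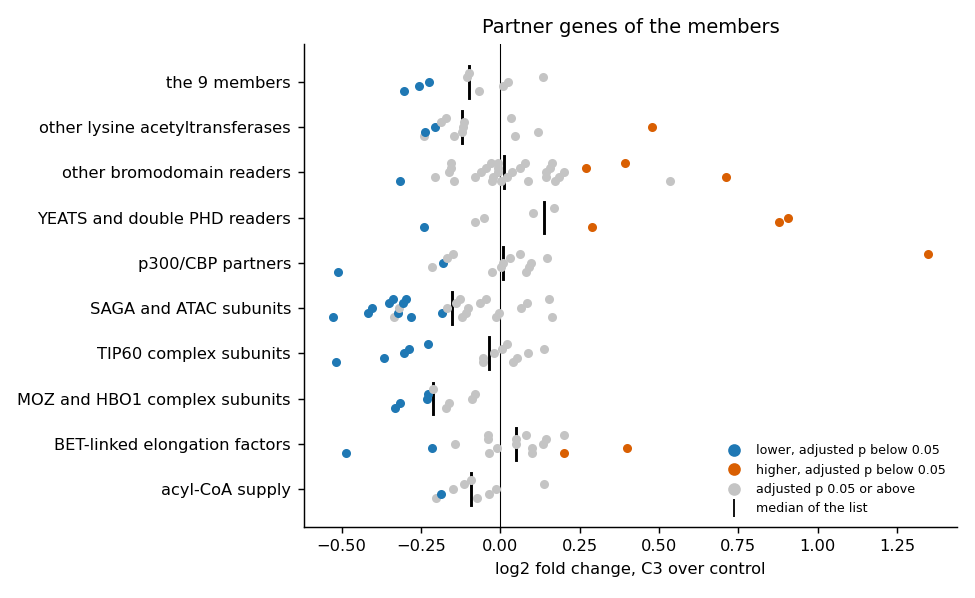
Log2 fold change of each tested gene of the lists (points; coloured at an adjusted p-value below 0.05 in edgeR's test, black bars are medians). The SAGA and ATAC, TIP60, and MOZ and HBO1 lists have 10, 5 and 4 lower genes and no higher one by this gate, and the other partner lists except acyl-CoA supply hold both higher and lower ones. The ATAC subunit YEATS2, which was higher, is counted with the YEATS and double PHD readers.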

How the data were processed

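Meg-01 mRNA of 3 control and 3 C3 libraries was analysed from the count table that the authors deposited. Per the submitters' processing notes, reads were trimmed with fastp, aligned with STAR 2.6.1d to GRCh38 and counted with featureCounts 1.5.0-p3, and the authors tested with DESeq2. Annotation release and strand setting: not given in the sources used here. Counts were raw whole numbers for 58735 genes, of which 58207 IDs were matched to symbols.

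A gene entered (15078 did) with 10 or more counts in 3 or more libraries. These were fitted with edgeR 4.0.16 (TMM factors, quasi-likelihood test, two-sided, Benjamini-Hochberg over all tested genes) in R 4.3.3. Alternatives used DESeq2 1.42.0, limma 3.58.1, other scalings and filters, a GC correction, a replicate block and each library left out. The code was tested on simulated data. Ratios used a pseudocount of 0.5. Counts per library limit precision, and the common biological coefficient of variation was 6.21%.

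The members and lists were chosen with earlier results of these data known. Named were the 9 members, their nearest relatives (1 is not reported here), the called genes of each list (at most 3 by p-value) and the genes most like KAT7 and BRD2. List genes named at an adjusted p-value below 0.05 or as not passing, the promoter motifs and the canonical transcript lengths were chosen after their values were seen. Promoter sequences are from RefSeq (GRCh38.p14).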

Additional observations from a re-analysis of the deposited data

How the results depend on the processing

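KAT7 kept its call at an adjusted p-value below 0.05 in 14 of 15 alternatives, KAT5 in 8 and KAT2A in 7. Leaving out single libraries gave log2 fold changes of -0.28 to -0.22 for KAT7, -0.38 to -0.23 for KAT5, -0.26 to -0.17 for KAT2A and 0.10 to 0.21 for BRD2. It crossed 0 for EP300 (-0.15 to 0.0017), CREBBP (-0.19 to 0.00058), KAT2B (-0.039 to 0.12) and KAT6A (-0.052 to 0.067). The members lower by both gates then numbered 0 to 1, and at an adjusted p-value below 0.05 members numbered 0 to 2 lower and 0 to 1 higher, with 0 lower without C3 replicate 3. Over all genes 516 to 766 were higher and 129 to 340 lower by both gates, the fewest when C3 replicate 3 and the most when C3 replicate 1 was left out. By both gates, left-out libraries gave 1 higher bromodomain reader, 0 to 1 higher p300/CBP partners, 0 to 1 higher elongation factors, 2 to 5 lower SAGA and ATAC subunits and 1 to 2 lower TIP60 subunits, with 5 and 2 without C3 replicate 1 and 2 TIP60 subunits also without C3 replicate 3. At an adjusted p-value below 0.05 they gave 3 to 4 lower TIP60 and 2 to 3 lower MOZ and HBO1 subunits.

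In DESeq2, KAT2A was at -0.24 and KAT5 at -0.31, neither called, leaving 1 member, 3 TIP60 and 2 MOZ and HBO1 subunits lower at an adjusted p-value below 0.05, and by both gates 1 higher bromodomain reader, 0 p300/CBP partners and 0 elongation factors. By both gates limma-voom gave 1 higher bromodomain reader and 0 p300/CBP partners. With library size alone, EP300 was at 0.0057, KAT2A at -0.15, KAT5 at -0.23 and BRD2 at 0.21. That scaling gave 100 lower genes, 2 higher YEATS readers and 1 lower SAGA subunit by both gates, and at an adjusted p-value below 0.05 1 lower and 1 higher member, 6 SAGA, 2 TIP60 and 2 MOZ and HBO1 subunits lower. Without a count filter KAT2A was at -0.22 and not called (adjusted p = 0.071 in edgeR's test), and 2 YEATS readers were higher by both gates. With a mean count of at least 50, 3 TIP60 subunits were lower at an adjusted p-value below 0.05 and 0 p300/CBP partners higher by both gates. The GC correction gave 2 higher YEATS readers by both gates and 1 higher member at an adjusted p-value below 0.05, BRD2 at 0.15. The cause of these changes was not tested.

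At an adjusted p-value below 0.05 with no fold gate, 1658 genes were higher and 1323 lower. Lower were 3 members, 2 other acetyltransferases, 1 bromodomain reader, 1 YEATS or double PHD reader, 2 p300/CBP partners, 10 SAGA and ATAC, 5 TIP60 and 4 MOZ and HBO1 subunits, 2 elongation factors and 1 acyl-CoA gene. Higher were 0 members, 1 other acetyltransferase, 3 bromodomain readers, 3 YEATS or double PHD readers, 1 p300/CBP partner and 2 elongation factors.

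Samples with the same replicate number did not deviate together (correlations of 0.011, -0.042 and 0.029), so the numbers did not pair them. In the fit with the replicate block KAT7 was at -0.26, KAT5 at -0.30 and KAT2A at -0.23, all called at an adjusted p-value below 0.05, and 11 SAGA and ATAC subunits were lower.

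With canonical transcript lengths, chosen after seeing the data, CPM per kilobase in control and C3 cells were 10.8 and 10.3 for EP300, 11.0 and 10.3 for CREBBP, 13.4 and 11.5 for KAT2A, 3.99 and 4.03 for KAT2B, 9.48 and 7.72 for KAT5, 11.8 and 11.8 for KAT6A, 8.71 and 7.29 for KAT7, 44.7 and 49.1 for BRD2, and 16.9 and 15.7 for BRD3.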
